A study of Mus musculus with 9 samples.

Results

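Metallothioneins and the zinc transporters that work with them were described here through 5 genes, Mt1, Mt2, Mtf1, Slc30a1 and Slc39a14, chosen by name from the 55487 gene identifiers in the files; all 5 were among the 16140 genes tested. The values came from RNA sequencing of whole gastrocnemius, the large calf muscle, of male C57BL/6 mice, 8 weeks old by the series text and older by the study's methods, which add a further period of housing. In Dis, 1 hindlimb had been held straight in a thermoplastic bandage for 7 days. In Con, the muscle came from the opposite, free leg of the immobilized mice, and in NC it came from naive mice that wore no bandage, with 3 samples in each group. The series text describes Con as immobilized, against the sample labels, which call it the free leg; the sample labels were followed, and every Con value rests on them. Con muscle was therefore taken from animals that carried a bandage on the other leg, and the labels do not say which Con and Dis samples came from the same mouse. Every p-value below sets a difference between groups against the spread between these samples. The main fit took the samples as independent, so Con and Dis legs of the same mouse were not paired.

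Metallothioneins are small, cysteine-rich proteins that hold zinc and copper in the cytosol. When free zinc rises, the zinc-sensing factor MTF1, the product of Mtf1, binds short metal response elements in the promoters of Mt1, Mt2 and Slc30a1. Slc30a1 encodes ZnT1, which exports zinc across the plasma membrane, and Slc39a14 encodes ZIP14, which imports zinc as well as iron and manganese. Glucocorticoids and interleukin-6 are also known to raise metallothionein transcripts, and interleukin-6 raises Slc39a14 in mouse liver.

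Mt1 (ENSMUSG00000031765) and Mt2 (ENSMUSG00000031762) lie on the plus strand of chromosome 8 in GRCm38, Mt2 at 94172664 to 94173568 and Mt1 at 94179082 to 94180327, with 5513 bases between them. Mtf1 (ENSMUSG00000028890) lies on chromosome 4 at 124802104 to 124849800 and Slc30a1 (ENSMUSG00000037434) on chromosome 1 at 191906767 to 191913247, both on the plus strand. Slc39a14 (ENSMUSG00000022094) lies on the minus strand of chromosome 14 at 70303469 to 70351425. Mt1 shared no stretch of 75 bases with transcripts of any other gene, so its reads and those of Mt2 can be told apart. Mt2 is overlapped by the antisense gene Gm45774, with which it shared 160 such stretches. Mtf1 is overlapped by 1110065P20Rik on the other strand, with which it shared 1790. The sources do not say whether counting used strand, so some reads of these overlapping pairs may be shared out uncertainly.

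The stretches just upstream of the annotated starts of Mt1, Mt2 and Slc30a1, the genes here whose promoters MTF1 is known to bind, are shown because they carry the core of the metal response element. Capitals mark each match to TGCACNC or TGCGCNC on either strand, where N is any base, and the sequences are from RefSeq, build GRCm38.p6, plus strand.
Mt1, chr8:94178839-94179081: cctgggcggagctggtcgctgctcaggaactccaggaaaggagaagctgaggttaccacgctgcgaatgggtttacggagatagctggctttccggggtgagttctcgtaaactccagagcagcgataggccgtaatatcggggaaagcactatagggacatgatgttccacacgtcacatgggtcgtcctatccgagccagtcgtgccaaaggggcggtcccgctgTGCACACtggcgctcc
Mt2, chr8:94172368-94172617: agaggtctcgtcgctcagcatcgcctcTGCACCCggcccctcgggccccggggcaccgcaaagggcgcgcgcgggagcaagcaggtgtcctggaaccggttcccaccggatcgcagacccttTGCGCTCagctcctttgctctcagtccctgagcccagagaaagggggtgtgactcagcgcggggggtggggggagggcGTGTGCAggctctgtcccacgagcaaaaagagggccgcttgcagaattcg
Slc30a1, chr1:191906531-191906766: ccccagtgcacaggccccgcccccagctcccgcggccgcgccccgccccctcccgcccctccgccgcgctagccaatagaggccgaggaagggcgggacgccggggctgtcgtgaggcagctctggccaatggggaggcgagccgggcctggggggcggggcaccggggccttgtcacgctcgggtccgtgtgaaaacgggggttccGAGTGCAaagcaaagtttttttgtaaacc
In the full window of 250 bases before and 50 bases after the RefSeq start, Mt2 held 4 cores, a number reached by 0.517% of the 32851 promoters of the same length. Mt1 held 3 cores (1.97% of promoters held at least as many) and Slc30a1 held 2 (7.11%). Only 1 of the Mt1 cores, 3 of the Mt2 cores and 1 of the Slc30a1 cores lay before the RefSeq start, and the others began after it. Mtf1 held 0 in its window. A match is a description of the letters and not a measured binding site.

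Across the 9 samples the muscle label fitted the markers, as 8 muscle fibre transcripts summed to between 120418 and 148556 TPM in each sample (TPM being transcript levels corrected for gene length and scaled to one fixed total per sample). Dis sample 2 stood apart, with 13.8% of its TPM in mitochondrially encoded transcripts against 19.3 to 23.4% in the other 8 samples. It was the highest of the 9 samples in 42.0% of the genes tested, and it held at least 10 times the next highest level in 14 genes (0.0867%), Mt1 and Mt2 among them, and at least 2 times that level in 3.53% of genes, Slc39a14 among them. Its 8 macrophage markers summed to 429 TPM, against 50.8 and 61.8 in Dis samples 1 and 3, 79.7 to 129 in Con and 53.7 to 65.1 in NC. Its 6 neutrophil markers summed to 28.7 TPM, against 0.629 and 7.02 in the other Dis samples, and at most 1.47 in Con and 0.711 in NC, and Ly6g, which defines neutrophils, was above 0 only in Dis sample 2, at 0.058 TPM. Differences of the 5 genes that involve Dis are therefore given with and without Dis sample 2, as are the differences between Dis and Con of other genes that passed there, and the part of these other cells in it was not tested. In bulk muscle, fewer cells of a type and less RNA per cell cannot be told apart.

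Mt1 reached 795 TPM in Dis sample 2, whereas Dis samples 1 and 3 held 35.5 and 64.0 TPM. The Con samples held 30.5, 76.6 and 37.2 TPM, and the NC samples 17.1, 25.2 and 23.9 TPM. The Dis and Con values overlapped, since Con sample 2 lay above Dis samples 1 and 3, and every NC sample lay below both other groups. The means were 298 ± 430 TPM in Dis, 48.1 ± 24.9 in Con and 22.1 ± 4.34 in NC (SD, n = 3), and the Dis mean without sample 2 was 49.7 TPM. Dis sample 2 held 10.4 times the Mt1 level of Con sample 2, the next highest. Among the genes tested, Mt1 ranked 101 in Dis sample 2 and between 1148 and 4058 in the other 8 samples.

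Mt2 followed Mt1 sample by sample. It stood at 764 TPM in Dis sample 2, with 17.7 and 39.2 TPM in Dis samples 1 and 3. The Con samples held 14.1, 43.6 and 21.98 TPM and the NC samples 7.48, 8.66 and 11.3 TPM. As for Mt1, Con sample 2 lay above Dis samples 1 and 3, and no NC sample reached the lowest sample of either other group. The means were 274 ± 425 TPM in Dis, 26.6 ± 15.3 in Con and 9.16 ± 1.98 in NC (SD, n = 3), and 28.5 TPM in Dis without sample 2. From the lowest to the highest sample Mt2 spanned 102-fold, and 5.83-fold once Dis sample 2 was left out.

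The balance between the metallothioneins also differed between samples. The Mt1 level was 2.29, 2.91 and 2.11 times the Mt2 level in the NC samples, 2.16, 1.76 and 1.69 times in Con, and 2.001, 1.04 and 1.63 times in Dis. The highest ratio was in NC sample 2 and the lowest in Dis sample 2, where both transcripts stood at almost the same level. The order of the 9 samples was shared by Mt1 and Mt2 from Dis sample 2 at the top, through Con sample 2 and Dis sample 3, down to Con sample 1, and differed only among the NC samples below these.

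Mtf1, the zinc sensor itself, barely varied. Its level was 6.82, 6.76 and 6.73 TPM in Dis, 6.62, 6.15 and 5.52 TPM in Con and 5.73, 5.75 and 5.61 TPM in NC. The Dis samples lay above every other sample, and Dis sample 2 was not the highest of them. The highest sample held only 1.24 times the level of the lowest. The overlapping gene 1110065P20Rik held 10.1 to 16.2 TPM, more than Mtf1 in every sample. How reads were divided between this pair is not known, so the order of samples this close is uncertain.

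Slc30a1, the zinc exporter, was measured at 5.19, 5.40 and 4.86 TPM in Dis and at 4.40, 4.2 and 4.08 TPM in Con. The NC samples held 3.34, 4.28 and 3.07 TPM. All Dis samples lay above all Con and NC samples, whereas Con and NC overlapped through NC sample 2. Dis sample 2 was only 1.04 times the next highest sample, in contrast to its place in Mt1 and Mt2. The overlapping antisense gene 1700034H15Rik held at most 0.135 TPM in any sample.

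Slc39a14, the zinc importer, was at 17.6 TPM in Dis sample 2 and at 4.02 and 5.94 TPM in Dis samples 1 and 3. The Con samples held 4.82, 5.38 and 4.45 TPM and the NC samples 3.51, 4.01 and 3.74 TPM. Dis sample 2 held 2.96 times the next highest level, Dis sample 1 lay below all Con samples, and NC lay below both other groups, though NC sample 2 and Dis sample 1 almost met. Without Dis sample 2 the Dis mean fell from 9.18 to 4.98 TPM, beside 4.88 ± 0.467 in Con (SD, n = 3).

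**Figure D1:**
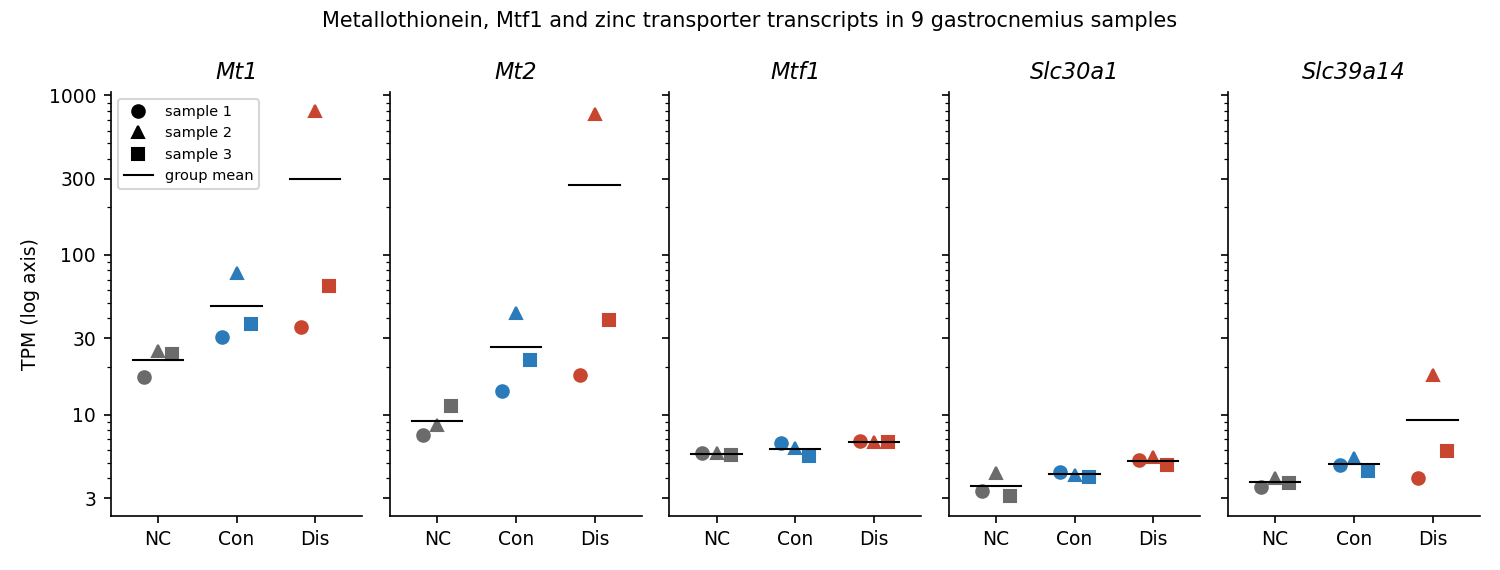
Level of the 5 genes in TPM on a log axis in each NC, Con and Dis sample, with point shape giving the sample number and a black line the group mean (n = 3). Dis sample 2 stands at 795 TPM for Mt1, 764 TPM for Mt2 and 17.6 TPM for Slc39a14, while Mtf1 and Slc30a1 stay within narrow ranges.

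The immobilized leg was first compared with the free leg of immobilized mice, which asks what the bandage did to the muscle it held. None of the 5 genes passed an adjusted p below 0.05 in limma on log2(TPM + 0.5), where 17.2% of all genes tested did (14.1% higher and 3.08% lower in Dis), and none had an unadjusted p below 0.05, where 33.7% of all genes did. The log2 fold change was 1.45 (SE 0.94, 95% interval -0.66 to 3.56, adjusted p = 0.308) for Mt1 and 1.75 (SE 1.12, -0.76 to 4.27, adjusted p = 0.303) for Mt2. For Slc39a14 it was 0.59 (SE 0.41, adjusted p = 0.341), for Slc30a1 0.26 (SE 0.13, adjusted p = 0.213) and for Mtf1 0.14 (SE 0.10, adjusted p = 0.369). Dis lay above Con without overlap in 2 of the 5 genes, Mtf1 and Slc30a1, against 30.2% of all genes tested.

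The metallothionein difference between the legs rested on Dis sample 2. Without it the log2 fold change was 0.10 for Mt1 (SE 0.38, 95% interval -0.75 to 0.96, adjusted p = 0.874) and 0.14 for Mt2 (SE 0.45, -0.87 to 1.16, adjusted p = 0.854). For Slc39a14 it was 0.0057 (SE 0.17, -0.37 to 0.38, adjusted p = 0.985). Slc30a1 and Mtf1 hardly moved, at 0.23 and 0.14. These intervals still allow log2 differences of up to 0.96 for Mt1 and 1.16 for Mt2.

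Relative to all genes, the small differences of Mtf1 and Slc30a1 shrank or turned. The median log2 fold change of all genes tested was 0.20 between Dis and Con, so the deposited TPM scale placed most genes slightly higher in Dis. Scaled to the median ratio of all genes, which brought that median to 0.01, the difference was 0.05 for Slc30a1 (adjusted p = 0.865) and -0.07 for Mtf1, a change of sign. Mt1, Mt2 and Slc39a14 stood at 1.22, 1.53 and 0.37 on that scale.

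The immobilized leg was next compared with muscle of naive mice. All 5 genes lay above NC without overlap, as did 31.3% of all genes tested, but only Slc30a1 passed the threshold, where 16.6% of all genes did (13.6% higher in Dis). Its log2 fold change was 0.49 (SE 0.13, 95% interval 0.18 to 0.79, adjusted p = 0.0386), or 1.40-fold. The call was lost without Dis sample 2 (0.46, adjusted p = 0.0725), although the size held, and under median ratio scaling, where the difference was 0.27 (adjusted p = 0.250).

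Mt2 and Mt1 had the largest differences among the 5 genes, without passing the threshold. The log2 fold change of Dis over NC was 3.11 for Mt2 (SE 1.12, 95% interval 0.59 to 5.62, adjusted p = 0.0857) and 2.46 for Mt1 (SE 0.94, 0.35 to 4.57, adjusted p = 0.0999). Without Dis sample 2 these were 1.5 (SE 0.45, adjusted p = 0.0577) and 1.11 (SE 0.38, adjusted p = 0.0849). Slc39a14 stood at 0.93 (SE 0.41, adjusted p = 0.143) and, without that sample, at 0.34 (adjusted p = 0.200). Mtf1 stood at 0.23 (SE 0.10, adjusted p = 0.155), at 0.23 without Dis sample 2 (adjusted p = 0.201) and at 0.0042 under median ratio scaling. At an unadjusted p below 0.05, which 34.1% of all genes had, the members were Mt1, Mt2, Slc30a1 and Slc39a14, of which Slc39a14 went from 0.0482 to 0.0705 in limma without Dis sample 2.

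Last, the free leg of immobilized mice was compared with naive mice, which asks whether muscle outside the bandage differed. All Con samples lay above all NC samples in 3 of the 5 genes, Mt1, Mt2 and Slc39a14, against 9.54% of all genes tested, and in the same 3 genes Con and Dis both lay above NC, against 4.49% of all genes. Mt1 and Mt2 followed nearly the same order of samples, so they are not separate observations. The 5 genes were also chosen with earlier results of these data known, so these shares are no test of the group. None of the 5 passed the threshold, as only 1 gene (0.0062%) did over the whole table and 1008 genes (6.25%) had an unadjusted p below 0.05. The log2 fold change of Con over NC was 1.01 for Mt1 (SE 0.94, adjusted p = 0.938), 1.35 for Mt2 (SE 1.12, adjusted p = 0.935) and 0.34 for Slc39a14 (adjusted p = 0.957). Slc30a1 and Mtf1 stood at 0.23 and 0.09.

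The spread used in that test is shared by all groups and was widened by Dis sample 2. With the spread estimated without it, the Mt1 difference of 1.01 had an SE of 0.34 (95% interval 0.24 to 1.78, adjusted p = 0.314) and the Mt2 difference of 1.35 an SE of 0.40 (0.45 to 2.26, adjusted p = 0.261), still short of the threshold over all genes. The summed macrophage markers were also higher in every Con sample (79.7 to 129 TPM) than in any NC sample (53.7 to 65.1 TPM). Of these markers Adgre1 and Csf1r overlapped between Con and NC and the others did not, and none of the 8 passed the threshold there. The part of macrophages in the Con values was not tested. Each pair of the 3 comparisons shares a group of samples, so they are not independent.

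**Figure D2:**
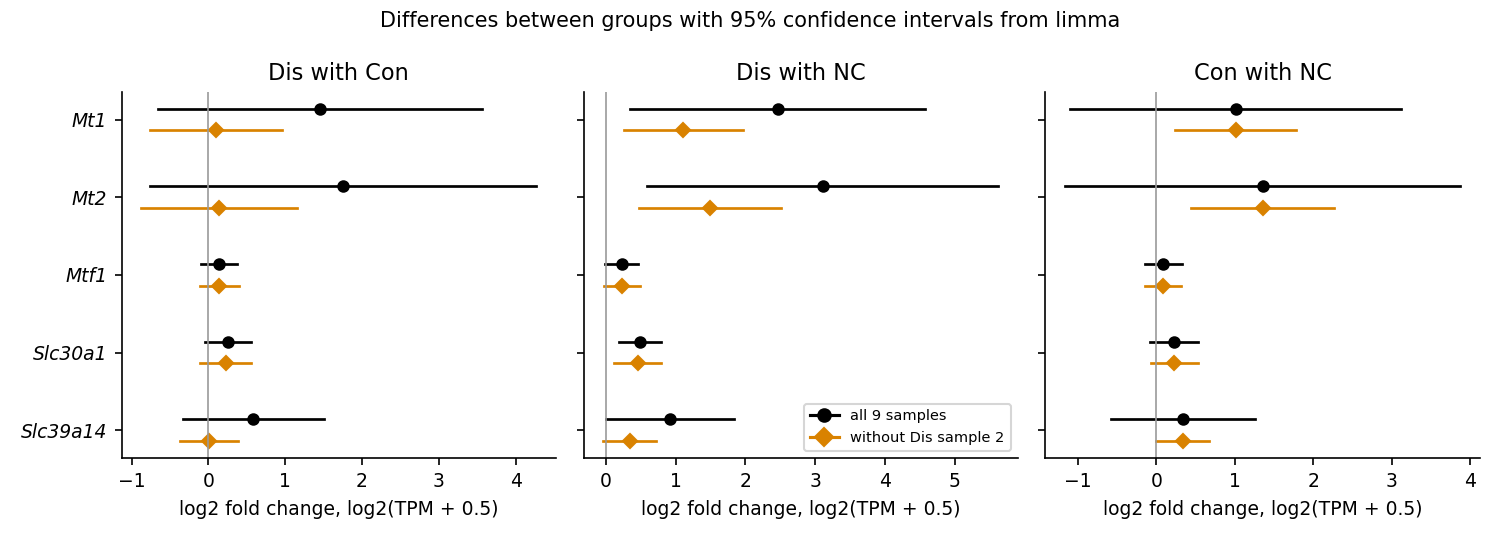
Log2 fold change of each gene between groups on the log2(TPM + 0.5) scale, with limma 95% intervals, for all 9 samples (black circles) and without Dis sample 2 (orange diamonds); each panel has its own scale. Between Dis and Con the estimates of Mt1, Mt2 and Slc39a14 move from 1.45, 1.75 and 0.59 to 0.10, 0.14 and 0.0057 when that sample is left out.

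The other metallothioneins and zinc transporters were listed as 24 genes, of which 17 passed the filter on low levels. Between Dis and Con, 0 of the 17 were higher and 1, Slc30a2, was lower at adjusted p below 0.05. Over all genes tested, 14.1% were higher and 3.08% lower there. The median log2 fold change of the 17 was 0.15 (0.028 without Dis sample 2), beside 0.20 for all genes. Between Dis and NC, 1 was higher, Slc30a4, and 0 were lower (13.6% of all genes were higher and 2.99% lower there). The median was 0.14 (0.030 without Dis sample 2) beside 0.21 for all genes. Under median ratio scaling that count turned to 0 higher and 3 lower, Slc30a2, Slc30a9 and Slc39a3 (-0.55, adjusted p = 0.0239). Of the 7 genes not tested, Slc30a8 and Slc39a5 were listed at 0 in all 9 samples.

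Slc30a2 encodes ZnT2, which moves zinc into vesicles. Its level was 5.48, 4.63 and 7.44 TPM in Dis and 9.96, 10.4 and 9.67 TPM in Con, without overlap, with 7.84, 8.97 and 7.56 TPM in NC. The log2 fold change between Dis and Con was -0.75 (SE 0.16, adjusted p = 0.0161), and it remained past the threshold without Dis sample 2 (-0.61, adjusted p = 0.0239) and under median ratio scaling (-0.96, adjusted p = 0.0146). Against NC it was -0.46 (adjusted p = 0.0744), -0.32 without Dis sample 2 (adjusted p = 0.161) and -0.69 under median ratio scaling, where it passed (adjusted p = 0.0433).

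Slc30a4 encodes ZnT4, another transporter that loads zinc into vesicles. It held 9.82, 9.14 and 11.7 TPM in Dis, 6.52, 7.12 and 8.56 TPM in Con and 7.11, 6.81 and 7.74 TPM in NC, so that Dis lay above both other groups. The log2 fold change was 0.47 against NC (SE 0.13, adjusted p = 0.0438) and 0.44 against Con (SE 0.13, adjusted p = 0.0518), and 0.54 and 0.51 without Dis sample 2 (adjusted p = 0.0363 and 0.0400). Under median ratio scaling it was 0.24 and 0.22, with adjusted p of 0.352 and 0.396.

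The transporters with the highest mean levels did not pass the threshold in any comparison on the deposited TPM scale. Slc39a7, encoding the endoplasmic reticulum zinc channel ZIP7, held 36.7 ± 6.74 TPM in Dis and 31.5 ± 4.81 in Con (SD, n = 3). Slc39a1, encoding the plasma membrane importer ZIP1, held 43.9 TPM in Dis sample 2 and 24.5 to 28.2 TPM in the other 8 samples. Slc30a9, encoding the mitochondrial protein ZnT9, held 26.5 ± 1.2 TPM in Dis and 28.5 ± 0.371 in Con (SD, n = 3), and it passed as lower in Dis than in NC under median ratio scaling (-0.36, adjusted p = 0.0453). These levels lay above those of Slc30a1 and Slc39a14 in every sample. Mt3, named after its values were seen, held 2.34, 6.92 and 2.19 TPM in Dis and at most 1.88 TPM elsewhere, with a log2 fold change between Dis and Con of 1.13 (SE 0.42, adjusted p = 0.0911) and, without Dis sample 2, of 0.65 (adjusted p = 0.190).

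**Figure D3:**
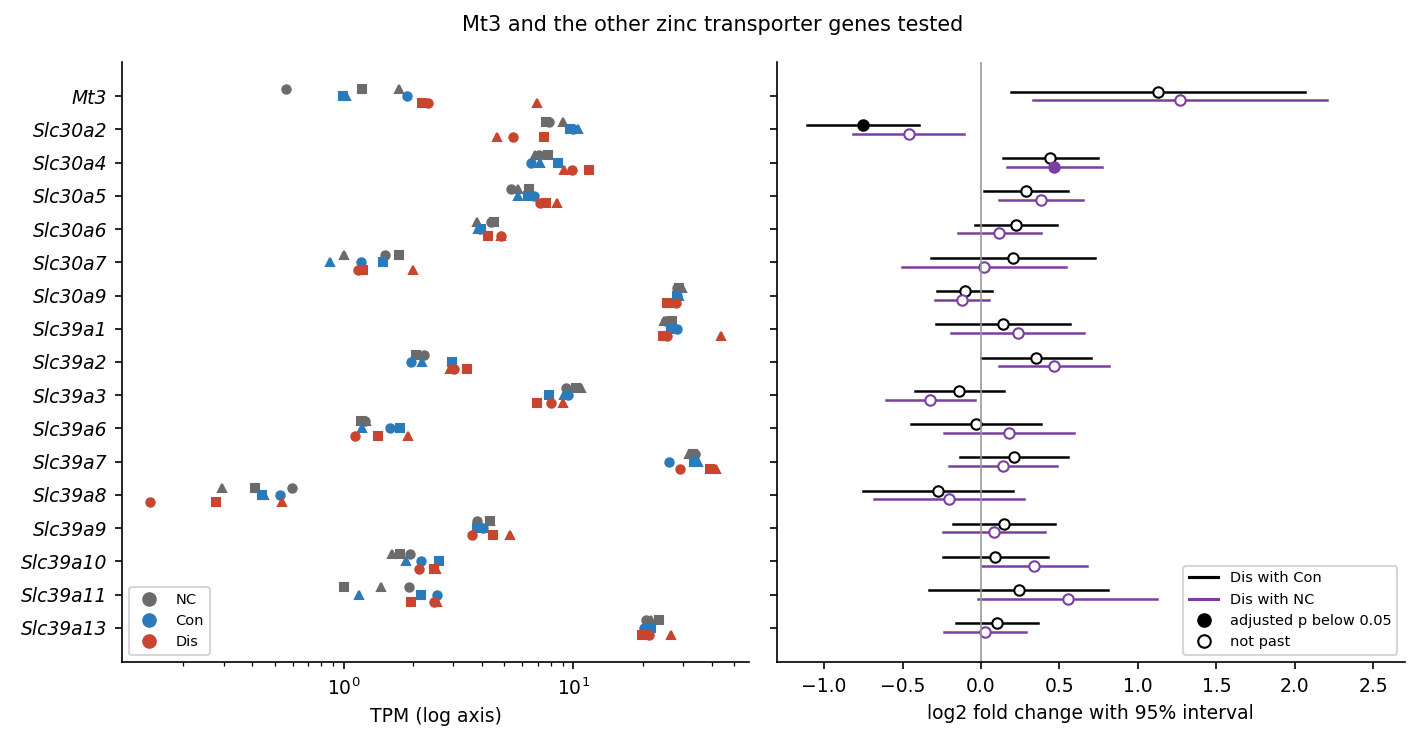
Left, level in TPM on a log axis of Mt3 and the other zinc transporters tested, in NC (grey), Con (blue) and Dis (red), with circles, triangles and squares for samples 1, 2 and 3; right, log2 fold change of Dis with Con (black) and with NC (purple), with 95% intervals and filled points for adjusted p below 0.05. Only Slc30a2 against Con (-0.75) and Slc30a4 against NC (0.47) are filled.

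Genes tied to the same inputs as the metallothioneins were read beside them. Of 5 further genes reported to depend on Mtf1 in mice, 1 was higher in Dis than in Con, where 14.1% of all genes were. This was Ndrg1, a stress-responsive gene, with a log2 fold change of 0.75 (SE 0.20, adjusted p = 0.0317). Its levels were 13.03, 23.2 and 21.6 TPM in Dis against 12.01, 10.04 and 10.8 TPM in Con. The call was lost without Dis sample 2 (0.60, adjusted p = 0.0644) and against NC (0.46, adjusted p = 0.131). The median of the list was 0.18 (0.055 without Dis sample 2), beside 0.20 for all genes. Of 14 iron and copper genes tested, 1 was higher and 1 lower, where 14.1% of all genes were higher and 3.08% lower. Sod1, the copper- and zinc-dependent superoxide dismutase, rose by a log2 fold change of 0.75 (SE 0.12, adjusted p = 0.00655) from 245 ± 3.76 to 416 ± 73.4 TPM (SD, n = 3). Tfrc, the transferrin receptor that brings iron into cells, was lower at -1.23 (SE 0.22, adjusted p = 0.0102), with 29.0 ± 10.1 TPM in Dis and 67.0 ± 12.6 in Con (SD, n = 3). Both held without Dis sample 2, at 0.61 (adjusted p = 0.00467) and -1.05 (adjusted p = 0.0163).

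Of 12 glucocorticoid target genes, 5 were higher and 0 lower in Dis than in Con, where 14.1% of all genes were higher, with a list median of 0.47 (0.31 without Dis sample 2) beside 0.20 for all genes; without Dis sample 2, 4 were higher and 1 lower, and under median ratio scaling 2 were higher and 2 lower. The kinase gene Sgk1 rose by 0.99 (SE 0.15, adjusted p = 0.00617) and Tsc22d3, encoding the glucocorticoid-induced leucine zipper, by 0.83 (SE 0.18, adjusted p = 0.0166; 0.66 without Dis sample 2, adjusted p = 0.0247). The clock repressor gene Per1 rose by 0.67 (adjusted p = 0.0161) and the transcription factor gene Klf9 by 0.30 (adjusted p = 0.0350), and both passed without Dis sample 2 (0.71 and 0.33, adjusted p = 0.0218 and 0.0313). Under median ratio scaling neither did (0.45 and 0.073, adjusted p = 0.0893 and 0.712). Sgk1 did not stand apart in Dis sample 2, as it held 271, 304 and 315 TPM in the Dis samples and 129 to 192 TPM in Con. Without that sample the Sgk1 difference was 0.97 (adjusted p = 0.0106). The gene lower without Dis sample 2 was Zbtb16 (-0.67, adjusted p = 0.0380). Those lower under median ratio scaling were Zbtb16 and Dusp1 (-0.72 and -1.08, adjusted p = 0.0383 and 0.0468). Fkbp5 was nearly level, at 0.17 (adjusted p = 0.616) and at 0.0022 without Dis sample 2.

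Of 12 interleukin-6 and STAT3 pathway genes tested, 2 were higher in Dis than in Con and 0 lower. Over all genes tested, 14.1% were higher and 3.08% lower. The list median was 0.66, but 0.093 without Dis sample 2, beside 0.20 for all genes. Il6st, the shared receptor subunit gp130, rose by 0.57 (SE 0.11, adjusted p = 0.0140), and Junb, an AP-1 subunit, by 2.11 (SE 0.55, adjusted p = 0.0309); under median ratio scaling neither passed. Without Dis sample 2, which held 167 TPM of Junb against 31.0 and 55.1 TPM in Dis samples 1 and 3, Junb stood at 1.44 (adjusted p = 0.0355) and Il6st at 0.47 (adjusted p = 0.0217). Dis sample 2 was the highest of the 9 samples in 12 of the 14 listed genes, and in 42.0% of all genes tested. The 12 include Il6 and Saa3, which were not tested. Summed over the list, Dis sample 2 held 982 TPM, against 355 and 347 TPM in Dis samples 1 and 3 and 268 to 324 TPM in Con. Of 9 oxidative stress genes tested, 2 were higher and 0 lower, beside the same shares of all genes (14.1% and 3.08%). The list median was 0.27, but -0.0028 without Dis sample 2, beside 0.20 for all genes. Sqstm1, encoding the autophagy receptor p62, rose by 0.88 (SE 0.17, adjusted p = 0.0130) and Nqo1, a quinone reductase, by 0.72 (SE 0.20, adjusted p = 0.0428). Without Dis sample 2 only Sqstm1 passed (0.65, adjusted p = 0.00537; Nqo1 0.50, adjusted p = 0.0717).

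**Figure D4:**
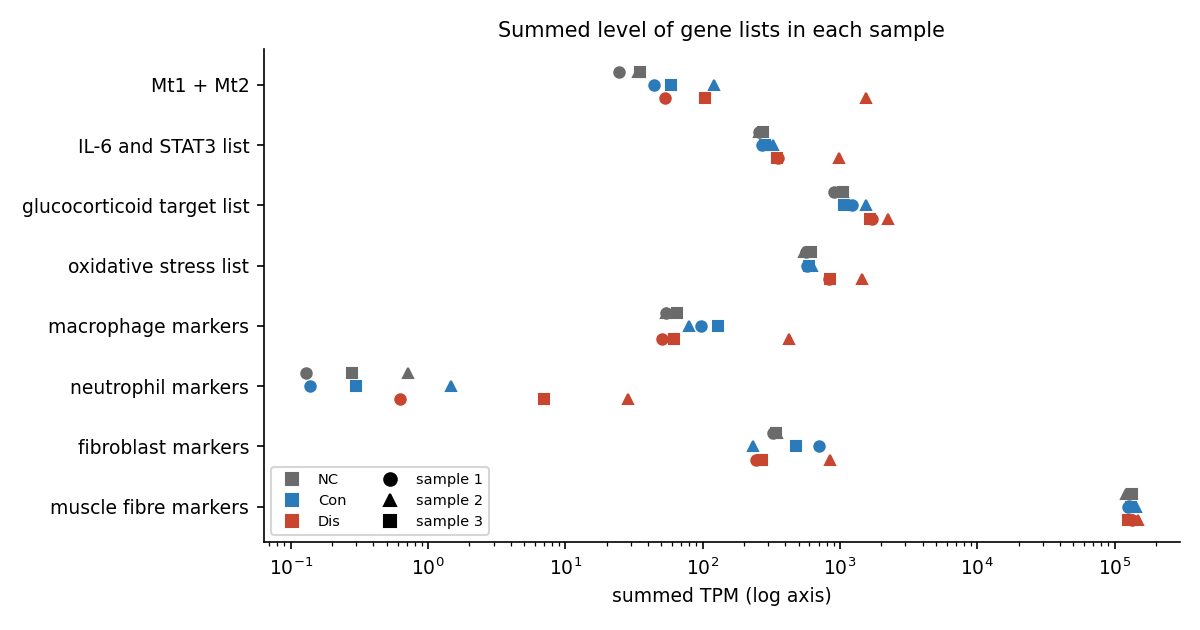
Summed TPM, on a log axis, of Mt1 plus Mt2 and of 7 gene lists in each sample, with colour for the group and shape for the sample number. Mt1 plus Mt2 reach 1559 TPM in Dis sample 2, against 53.2 and 103 TPM in Dis samples 1 and 3. All 7 lists drawn also stand highest there, the muscle fibre markers among them (148556 TPM, against 142502 TPM in Con sample 2). Among lists not drawn, the adipocyte, Schwann cell, red cell and satellite cell markers do not. The adipocyte markers hold 121 TPM there, against 360 TPM in Con sample 1. The other lists not drawn, for zinc, Mtf1-dependent, iron and copper, and endothelial genes, do stand highest there.

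The genes whose profiles lay closest to each member were found over the 9 samples, as the root mean square difference of centred log2(TPM + 0.5) values among 12899 genes with a mean of at least 1 TPM. For Mt1 these were Gm45774, the antisense gene over Mt2, at 0.34, Mt2 at 0.37 and Lcn2, encoding the iron-sequestering protein lipocalin 2, at 0.39. For Mt2 they were Mt1 at 0.37, Serpina3n, a serine protease inhibitor gene, at 0.51 and Gm45774 at 0.55. Their closeness rested on the same sample: Lcn2 held 0.889, 35.9 and 1.89 TPM and Serpina3n 1.36, 163 and 2.26 TPM in Dis samples 1, 2 and 3. Gm45774 held 1.16, 18.7 and 1.40 TPM in Dis, and since it shares sequence with Mt2 its profile is not separate evidence.

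For Slc39a14 the closest profiles were those of Spcs3, a signal peptidase subunit gene, at 0.14, and of Plvap, an endothelial diaphragm gene, and Piezo1, a mechanosensitive channel gene, both at 0.15. Spcs3 held 20.6, 66.9 and 20.6 TPM in Dis samples 1, 2 and 3, again with the high value in sample 2. Mtf1 was closest to Zfp748, Pank3 and Adipor2 (0.046, 0.049 and 0.053) and Slc30a1 to Trappc11, Gbf1 and Cep89 (each 0.083), genes that, like them, spanned narrow ranges. Trappc11, Gbf1 and Cep89, like Slc30a1, passed in limma as higher in Dis than in NC (adjusted p = 0.0193, 0.0225 and 0.0452). They were picked for closeness to Slc30a1 over these same samples, so the shared call is not separate evidence. Without Dis sample 2 Cep89 did not pass against NC (adjusted p = 0.0950). Under median ratio scaling none of them did (adjusted p = 0.194, 0.322 and 0.325). On the deposited TPM scale Trappc11 also passed against Con (0.40, adjusted p = 0.0386), but not without Dis sample 2 (0.37, adjusted p = 0.0682). Root mean square differences this small come with narrow ranges and are not comparable with those of Mt1 and Mt2.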

How the data were processed

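RNA sequencing data of 9 gastrocnemius samples, 3 each from Dis, Con and NC, were read from the deposited tables, 1 per sample. Values were TPM per gene, made by the authors with bcl2fastq 2.20, Trimmomatic 0.36, HISAT2 and StringTie 2.1.3. The HISAT2 version, build and strand setting are not given in the sources used here; 54815 of 55487 identifiers had the coordinates of GENCODE M21 (GRCm38), which was used for positions. The methods and labels name different leg muscles and library kits; the labels were followed. TPM holds no read totals, so depth is unknown and no counting interval is given.

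The value 0.0001, a stand-in for no expression, was read as 0. A gene was tested if 3 or more samples held 0.3 TPM or above, on log2(TPM + 0.5) by limma 3.58.1 with a mean trend (R 4.3.3), over all 9 samples in 3 groups, with p-values adjusted by Benjamini-Hochberg over the 16140 genes. Fold changes on this scale understate those of low genes. The fit was tested on simulated data. Alternatives were pseudocounts of 0.1 and 1, a filter at 1 TPM, no filter, median ratio and quantile scaling, leaving out mitochondrial transcripts, no mean trend, robust variance, array weights, fits of 2 groups, a replicate block and leaving out each sample. Other zinc genes were named if past the threshold in any comparison, plus the 3 with the highest means. From other lists, up to 4 genes with the smallest p past the threshold between Dis and Con were named. The 3 closest profiles of each member were also named. Zbtb16, Dusp1 and Fkbp5 were added after their values were seen. The members and lists were chosen with earlier results of these data known.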

Additional observations from a re-analysis of the deposited data

How the results depend on the processing

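Over 15 values (5 genes, 3 comparisons) and 21 alternatives each, 295 kept direction and side of the threshold, 14 lost the threshold, 3 passed it and 3 changed sign. All 14 losses were of Slc30a1 between Dis and NC, the only value past the threshold at first. For the others, kept means the same sign, still short of the threshold, whatever the size. Mt1 between Dis and Con counted as kept at 0.10 without Dis sample 2, down from 1.45. Mtf1 changed sign between Dis and Con under median ratio (-0.070) and quantile scaling (-0.084), and between Dis and NC under quantile scaling (-0.018). Slc30a1 between Dis and NC lost the threshold with no filter (0.49, adjusted p = 0.0564), median ratio (0.27) or quantile scaling (0.26), without mitochondrial transcripts (0.42), with array weights (0.50), with only those groups (0.49) and with a replicate block (0.49, adjusted p = 0.0535). Leaving out each sample gave 0.40 to 0.61 (limma adjusted p 0.0338 to 0.127), past the threshold in 2 of 9 cases. Without Dis sample 1, and so with Dis sample 2 weighing more, Mt1, Mt2 and Slc39a14 passed against NC (3.35, 4.19 and 1.34; limma adjusted p = 0.0343, 0.0281 and 0.0354); over all samples left out they ranged 1.11 to 3.35, 1.5 to 4.19 and 0.34 to 1.34.

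Genes called between Dis and Con numbered 2770 (2273 higher, 497 lower), 1184 under median ratio scaling (431 higher, 753 lower), 1192 under quantile scaling (549 and 643), 848 with only those groups and 700 to 2897 on leaving out each sample. Between Dis and NC they numbered 2676, 1457 (566 and 891), 1407 (630 and 777), 1230 and 836 to 3095. Between Con and NC there was 1, then 2 with no filter, 43 with array weights, 7 with only those groups, 2 with a replicate block and 1 to 8 on leaving out each sample. Across genes, same-numbered Dis and Con samples did not deviate together (correlations -0.01, -0.02 and 0.02), and the labels link none, so the block pairs nothing known. Mt1 and Mt2, however, both rose from sample 1 through sample 3 to sample 2 in Con and in Dis. With the block the SE of Mt1 fell from 0.94 to 0.69 (Dis against NC, limma adjusted p = 0.0552). Beyond Slc30a1 between Dis and NC, the block changed no call of the 5 genes. List counts without Dis sample 2 and under median ratio scaling were added after seeing the data. With 3 samples a group, 1 of which stands apart, intervals for Mt1 and Mt2 span several log2 units, and no read totals limit low levels further.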
